A study of Mus musculus with 6 samples.

Results

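The genes described here are 9 genes of the MHC class I pathway and of the interferon response, chosen by symbol from the 24935 genes of the deposited table. They are the class I light chain gene B2m, the heavy chain genes H2-K1 and H2-D1, the peptide transporter gene Tap1, and the interferon response genes Isg15, Ifit3, Ifitm3, Irf7 and Bst2. C57BL/6 pups of both sexes were kept with their dams in room air or in 85% oxygen (hyperoxia) from postnatal day (P) 2 to P14, and the left hippocampus was taken at P14. The labels and methods describe no transgene or drug for either group, although the name of a second deposited table, not used here, holds the word oil for both groups. The number of litters is not known here. PolyA RNA of 3 air-exposed and 3 hyperoxia-exposed mice was sequenced, 1 library per mouse, and the deposited value is a read count divided by 1 size factor per library, called the normalized count below. The libraries are numbered 1 to 3 in each group as in the deposited columns, which do not name the animal, and every direction below follows the group in those column names. That direction is in doubt. The sources used here do not settle which exposure each set of columns holds, and the 9 genes do not check it. If the names were exchanged, every sign below would turn, while the sizes and tests of the differences would stand.

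The libraries held 30384052 to 38746972 reads on genes, and the median tested gene had 449 to 576 reads, so depth limited only the low genes. Every marker of the neuron list (9 of 9, with the hippocampal genes Prox1, Neurod6 and Wfs1) was measurable. Replicates differed by more than counting noise, with a chi-square per gene of 6.51 to 47.2 between libraries of a group. Hyperoxia library 3 stood apart in choroid plexus RNA, with 7454 normalized counts of Ttr against 167 to 887 in the other libraries. Hyperoxia library 2 stood apart from the other hyperoxia libraries, and without it the genes called across the table rose from 5425 to 7756 of 17778.

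MHC class I molecules present peptides from inside the cell on its surface. The heavy chain, encoded by H2-K1 or H2-D1 in this strain, needs the light chain β2-microglobulin and a peptide that the TAP transporter carries into the endoplasmic reticulum. In the brain these molecules are known on microglia and endothelial cells and also on neurons, where they take part in synapse refinement. Interferons act through receptors that signal by JAK kinases to STAT and IRF transcription factors, which bind a DNA element called ISRE (interferon-stimulated response element) and switch on antiviral genes. Class I genes are themselves raised by interferon.

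The promoters of the 9 genes are shown first, with the windows that hold an exact match to a searched motif near the start. Any link between these letters and the changes below was not tested. The RefSeq promoter windows (GRCm38.p6) run from 250 bases before to 50 bases after each start, and all 9 genes had a window. The ISRE core was searched as GAAA, any 2 bases and GAAA again, on both strands, counting overlapping matches, and was found in 5 of the 9 genes. Among all 32851 windows of the same length, 3.44% held it. The matches are in capitals, each line running 5′ to 3′ on the strand of the gene.
B2m, chr2:122147528-122147577, plus strand: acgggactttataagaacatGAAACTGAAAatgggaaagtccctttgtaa
Isg15, chr4:156200855-156200916, minus strand: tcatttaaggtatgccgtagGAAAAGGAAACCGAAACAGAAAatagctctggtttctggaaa
Ifit3, chr19:34583353-34583436, plus strand: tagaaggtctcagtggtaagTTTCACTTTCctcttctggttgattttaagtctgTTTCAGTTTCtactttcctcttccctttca
Ifitm3, chr7:141010715-141010743, minus strand: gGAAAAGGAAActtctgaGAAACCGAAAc
Bst2, chr8:71537567-71537622, minus strand: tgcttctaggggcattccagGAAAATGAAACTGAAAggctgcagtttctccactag

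Isg15 had 3 overlapping matches, Ifit3, Ifitm3 and Bst2 had 2 each, and B2m had 1. The Ifitm3 matches lie just after the RefSeq start, and the others before it. H2-K1 and H2-D1 had no exact match of this core, but shared an exact match to 1 fixed κB word. Other spellings of either element were not searched for, so the letters do not show that a gene lacks one. The word searched, on both strands, is that in capitals in the lines for H2-K1 and H2-D1. Of all windows 0.0304% held this exact word, which is not the share that holds a κB site of any spelling.
H2-K1, chr17:34000428-34000478, minus strand: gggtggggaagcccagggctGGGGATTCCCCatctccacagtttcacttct
H2-D1, chr17:35262903-35262953, plus strand: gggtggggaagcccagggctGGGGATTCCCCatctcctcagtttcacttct

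The windows of Tap1 and Irf7 held no exact match to either motif. The GAS element, searched as TTCNNNGAA on both strands, was found in the windows of Ifitm3 and Bst2 (2 of 9) and in 8.30% of all windows. In both genes it overlaps an ISRE core match. A match of letters is a description of the window and not a measured binding site.

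The comparison of hyperoxia with air was made with limma on log2 of the normalized count plus 1 over the 17778 genes that averaged 10 or more. A gene is called where its Benjamini-Hochberg adjusted p over all these genes is under 0.05. Log2 fold changes are hyperoxia minus air with the standard error (SE) of the fit, and they understate the change of low genes. All 9 genes passed the filter, and 30.5% of the genes tested were called. B2m and Isg15 fell, and the other 7 did not pass the test. Thus 2 of 9 were lower, where 15.6% of all genes tested were called lower, and none of the 9 was called higher, where 14.9% of all genes were. At an unadjusted p under 0.05 in limma, which 42.7% of all genes passed, 3 of the 9 were lower and 1, Ifitm3, was higher. The edgeR quasi-likelihood test on the recovered reads also called 2 lower and 0 higher, with 30.9% of all genes called. DESeq2 called 3 lower and 1 higher, with 31.6% of all genes called. The median log2 fold change of the 9 genes was −0.11, and that of all genes tested was −0.01. The hyperoxia libraries lay wholly below the air libraries for 2 of the genes, B2m and Isg15, and wholly above them for H2-D1 and Ifitm3. Across all genes tested the groups did not overlap, with hyperoxia below in 23.8% and above in 22.3%. For 1 gene in 3 mice against 3 the exact permutation p, two-sided, has a minimum of 0.10, which these 4 genes reached.

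**Figure D1:**
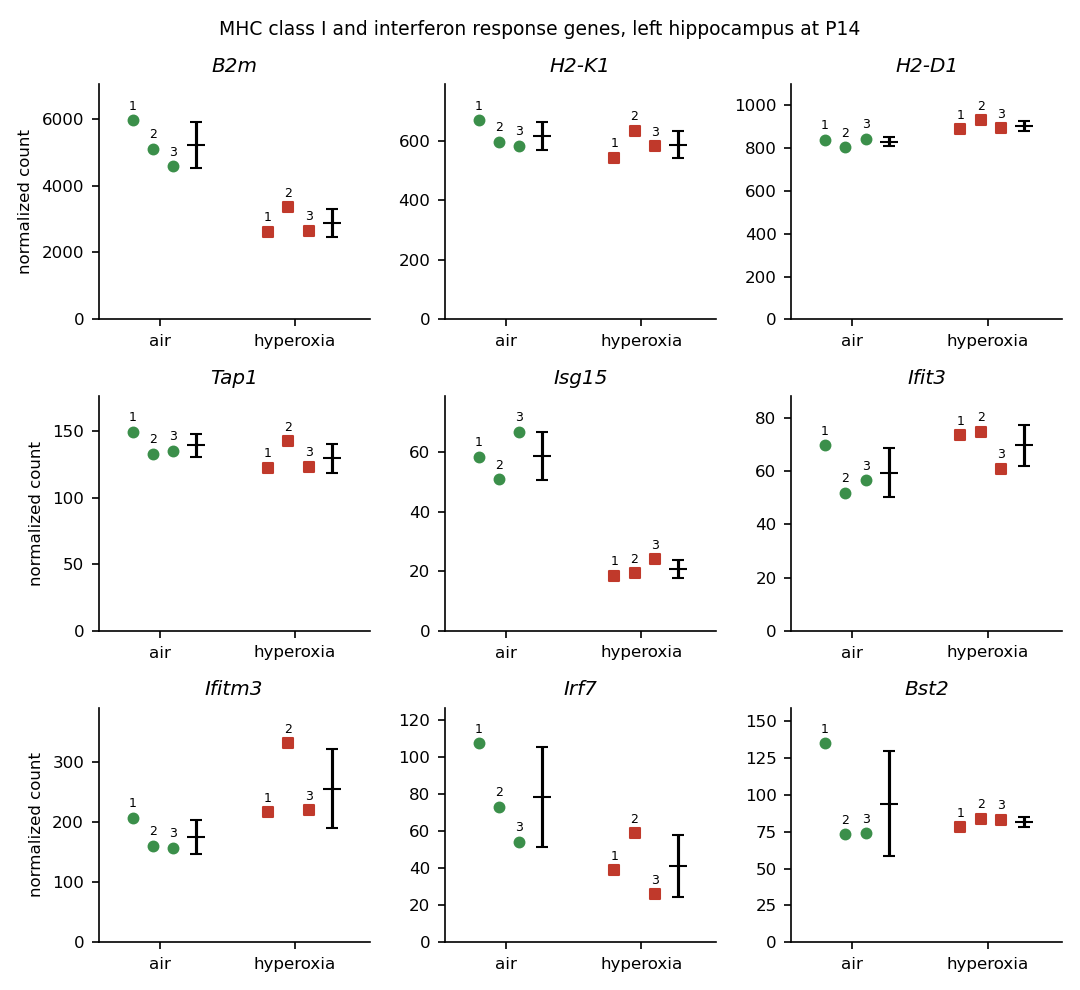
Normalized counts (vertical axes, each from 0) of the 9 genes in the 3 air libraries (green circles) and the 3 hyperoxia libraries (red squares), numbered by library, with the group mean and SD in black. B2m and Isg15 are lower in every hyperoxia library, and Bst2 is high only in air library 1.

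B2m (ENSMUSG00000060802.8) lies on the plus strand of chromosome 2, from 122147686 to 122153083 (GENCODE M21 on GRCm38, as for the other genes). Its normalized count was 5948, 5098 and 4572 in air libraries 1 to 3 and 2621, 3352 and 2645 in hyperoxia libraries 1 to 3. The highest hyperoxia library was below the lowest air library. Air averaged 5206 ± 695 (SD, n = 3) and hyperoxia 2873 ± 416 (SD, n = 3), so hyperoxia was at 0.552 of air. The log2 fold change of −0.86 (SE 0.12, adjusted p = 0.0014 by limma) was called under all 16 alternative settings, from −0.97 to −0.76. Without hyperoxia library 3, the library rich in choroid plexus RNA, it was −0.804. In bulk tissue, fewer cells of a type and less RNA per cell cannot be told apart.

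H2-K1 and H2-D1 encode the classical heavy chains of this strain and lie on chromosome 17, H2-K1 from 33996017 to 34000347 on the minus strand and H2-D1 from 35262730 to 35267499 on the plus strand. H2-K1 was at 669.6, 597 and 584 normalized counts in air and at 545, 634 and 583 in hyperoxia. The groups overlapped, and the log2 fold change of −0.07 (SE 0.10, adjusted p = 0.60 by limma) lay within 1 SE of 0. H2-D1 was at 840.0, 806 and 844 in air and at 890.1, 930.6 and 894 in hyperoxia. All hyperoxia values were above all air values, but the log2 fold change of 0.12 (SE 0.07, adjusted p = 0.23 by limma) did not pass the threshold. It did so only once a smooth trend on transcript length and GC was taken out of every library, at 0.26 with a limma adjusted p of 0.014, a setting that called 34.7% of all genes. Class I heavy chain genes resemble each other closely: of the 50-base words of the longest transcript, 8.11% of those of H2-K1 and 14.3% of those of H2-D1 also occur in transcripts of other genes. Reads from such stretches could be lost or split, so both levels are uncertain to that extent.

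Set per length, the light chain gene was at a higher level than the heavy chain genes. In air, B2m had 6053 ± 808 normalized counts per kb of exon (SD, n = 3), H2-D1 had 322 ± 8.10 and H2-K1 had 210.0 ± 15.7. The exon length joins all annotated exons, 2938 bases for H2-K1 and 2579 for H2-D1, whose longest transcripts have 1874 and 2102. For B2m both lengths are 860, so the size of the gap depends on the length used, and on reads lost from the heavy chain genes. The ratio of B2m to the sum of H2-K1 and H2-D1 on this scale was 12.5, 11.5 and 10.1 in the air libraries. In the hyperoxia libraries the ratio was 5.74, 6.76 and 5.64, all below the air values. The exact two-sided permutation p of 0.10 is the smallest that 3 against 3 allows. The ratio holds the B2m values given before, so it is not a separate result.

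Tap1, whose product is a subunit of the peptide transporter, lies on the plus strand of chromosome 17, from 34187553 to 34197225. It was at 149.7, 133 and 136 normalized counts in air and at 123, 143 and 124 in hyperoxia. The groups overlapped, with a log2 fold change of −0.11 (SE 0.13, adjusted p = 0.56 by limma). No alternative called it. Its exons overlap those of Psmb9 on the other strand, and the strand setting of the counting is not known here.

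Among the interferon response genes, Isg15 (ENSMUSG00000035692.6), on chromosome 4 from 156199424 to 156200818 (minus strand), encodes a ubiquitin-like protein that is joined to other proteins. Its normalized count was 58.4, 50.9 and 66.7 in air and 18.6, 19.2 and 24.1 in hyperoxia. The highest hyperoxia library was far below the lowest air library. The means were 58.7 ± 7.93 (SD, n = 3) and 20.6 ± 3.04 (SD, n = 3), so hyperoxia was at 0.352 of air. The log2 fold change of −1.46 (SE 0.22, adjusted p = 0.0018 by limma) was the largest of the 9 genes and rests on 17 to 65 reads per library. It was called in each of the 15 alternatives that kept the gene, from −1.58 to −1.30, including without hyperoxia library 3 (−1.58).

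Irf7 encodes the transcription factor that amplifies type I interferon production and lies on the minus strand of chromosome 7, from 141262706 to 141266481. It was at 107, 73.3 and 54.4 normalized counts in air and at 38.9, 58.9 and 26.1 in hyperoxia. Hyperoxia library 2 was above air library 3, so the groups overlapped. The log2 fold change was −0.93 (SE 0.32, adjusted p = 0.056 by limma), just outside the threshold. The alternatives gave −1.22 to −0.64 with adjusted p from 0.0070 to 0.21. Irf7 was called by DESeq2 (adjusted p 0.030), by limma without hyperoxia library 2 (0.0070, with 43.6% of all genes called) and by limma without air library 3 (0.0467). It has a short exon overlap with Phrf1 on the other strand.

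Ifitm3, whose product blocks virus entry at the endosome membrane, lies on the minus strand of chromosome 7, from 141009586 to 141010770. In the opposite direction to Isg15 and Irf7, it was at 207, 161 and 157 normalized counts in air and at 217, 331 and 219 in hyperoxia. The groups were separate, though air library 1 and hyperoxia library 1 were close, and hyperoxia library 2 stood well above the rest. Its log2 fold change was 0.53 (SE 0.18, adjusted p = 0.056 by limma), also just outside the threshold. Over the alternatives it was 0.33 to 0.69, and the lowest value came without hyperoxia library 2. It was called by DESeq2 (adjusted p 0.026), by limma after removal of the length and GC trend (0.0062) and by limma without hyperoxia library 3 (0.038).

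Ifit3 encodes a member of the IFIT family of RNA-binding antiviral proteins and lies on the plus strand of chromosome 19, from 34583531 to 34588731. Its normalized count was 69.7, 51.9 and 56.5 in air and 73.4, 74.7 and 60.8 in hyperoxia. The groups overlapped, with a log2 fold change of 0.23 (SE 0.18, adjusted p = 0.36 by limma). Of its 50-base words 51.2% also occur in Ifit3b, so how reads were shared between this pair is uncertain. Ifit3b itself was at 37.7, 49.9 and 21.6 in air and 46.0, 46.4 and 33.8 in hyperoxia, at 0.27 on the log2 scale (limma adjusted p = 0.54).

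Bst2, the gene of tetherin, which holds budding virus at the cell surface, lies on the minus strand of chromosome 8, from 71534255 to 71537456. It was at 134.7, 73.3 and 73.9 normalized counts in air and at 77.8, 83.8 and 83.0 in hyperoxia. Only air library 1 was above the hyperoxia libraries. The log2 fold change of −0.14 (SE 0.23, adjusted p = 0.67 by limma) became 0.15 without air library 1 and 0.04 after removal of the length and GC trend, so its sign changed under either setting. Neither value was called.

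**Figure D2:**
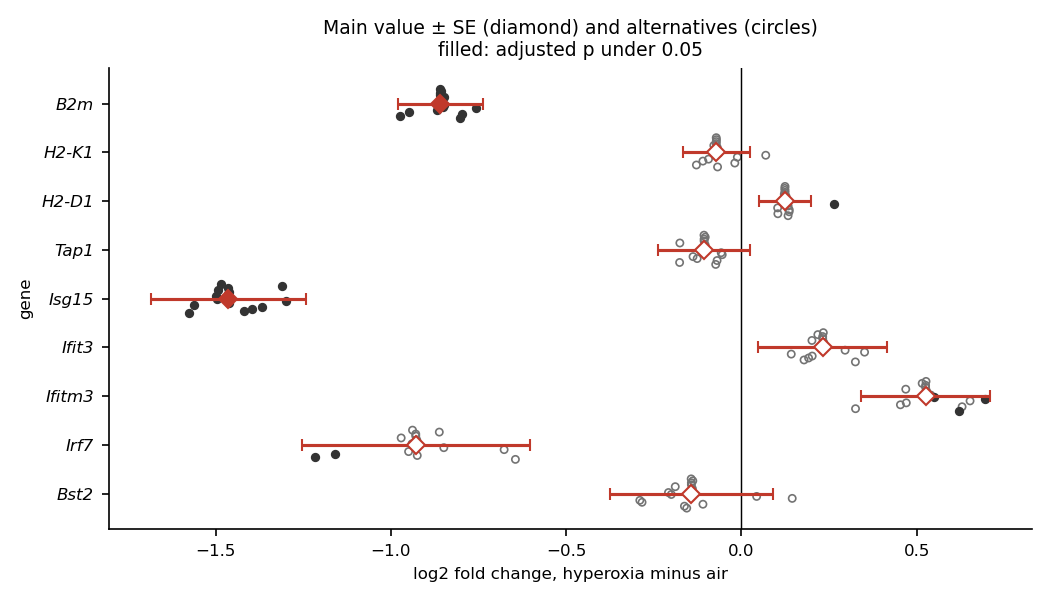
Log2 fold change, hyperoxia minus air (horizontal axis), of the 9 genes (vertical axis), with the main value and its standard error as a red diamond and each alternative setting as a circle. Filled symbols have an adjusted p under 0.05, and only B2m and Isg15 are filled throughout, while Irf7 and Ifitm3 are filled in 3 of 16 alternatives each.

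The libraries also differed inside each group. Air library 1 was the highest air library for 7 of the 9 genes, where 35.4% of all genes tested had it highest. Hyperoxia library 2 was the highest hyperoxia library for 8 of the 9, where 40.2% of all genes had it highest. The exceptions were Isg15, highest in air library 3 and hyperoxia library 3, and H2-D1, highest in air library 3. In the longer list of other interferon response genes, air library 1 was highest for 23 of 41 genes and hyperoxia library 2 for 16 of 41.

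The 3 genes outside the list with the most similar pattern were found by Pearson's r over the 6 libraries. Their patterns were set against the mean standardized log2 value of the class I genes and of the interferon response genes. For the class I genes they were Nelfe (r = 0.99), Vnn1 (0.98) and 4632428C04Rik (0.98). For the interferon response genes they were Pdcd5-ps (0.99), Olfr1366 (0.98) and Gm15772 (0.98). None of the 6 was called, and apart from Nelfe they had at most 104 reads in a library. The mean patterns stand for some members more than others, with r = 0.98 for Tap1, 0.64 for B2m and −0.02 for H2-D1 against the class I mean, and 0.88 for Bst2 and 0.17 for Isg15 against the interferon response mean.

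Beyond the 9 genes, the receptors and signalling genes of the interferon pathway were read as a list. Of 18 such genes, 8 were lower and 1 was higher in hyperoxia, so 9 of 18 were called, where 30.5% of all genes tested were. The median log2 fold change of the list was −0.26. The genes of this list beyond Socs3, Irf3, Irf2 and Stat2 that are named here were chosen after their values were seen.

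Of the receptor chains, Ifnar2, part of the type I interferon receptor, was at 459, 497 and 452 normalized counts in air and at 352, 339.6 and 343 in hyperoxia. Its log2 fold change was −0.44 (limma adjusted p = 0.0060). Ifnar1, its partner chain, was at 0.03 (limma adjusted p = 0.82). Ifngr2, of the interferon gamma receptor, fell by 0.27 on the log2 scale (limma adjusted p = 0.046), which 7 of 16 alternatives called, and Ifngr1 was at −0.11 (limma adjusted p = 0.50). Tyk2, the kinase bound to Ifnar1, fell by 0.33 (limma adjusted p = 0.015), while Jak1 and Jak2 were at 0.10 and 0.09 and were not called.

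Stat2 and Irf9 encode subunits of the complex that binds the ISRE. Stat2 was at 1454, 1335 and 1366 normalized counts in air and at 992, 865 and 1032 in hyperoxia. The log2 difference was −0.53 (SE 0.09, adjusted p = 0.0026 by limma). Irf9 was at 494, 429 and 431 in air and at 299, 344 and 300.2 in hyperoxia, a log2 fold change of −0.52 (limma adjusted p = 0.0060). Both were called under all 16 alternatives.

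Irf3, which encodes the factor that starts interferon transcription after virus sensing, was at 1100.0, 1056 and 1127 normalized counts in air and at 679, 757 and 708 in hyperoxia. The log2 difference was −0.61 (SE 0.08, adjusted p = 9.95e-04 by limma). Irf1, an activator of class I genes, was at 190.2, 193 and 164 in air and at 104, 111 and 116 in hyperoxia, a log2 fold change of −0.72 (limma adjusted p = 0.0035). Irf2, whose product competes with IRF1 for its sites, fell by 0.48 (limma adjusted p = 0.0018). For these 3 genes all 16 alternatives made the call. In the other direction, Socs3, a feedback inhibitor of JAK-STAT signalling, was at 65.9, 58.0 and 59.5 in air and at 143, 144 and 124 in hyperoxia. Its log2 fold change of 1.15 (SE 0.15, adjusted p = 9.8e-04 by limma) was also called under all 16.

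**Figure D3:**
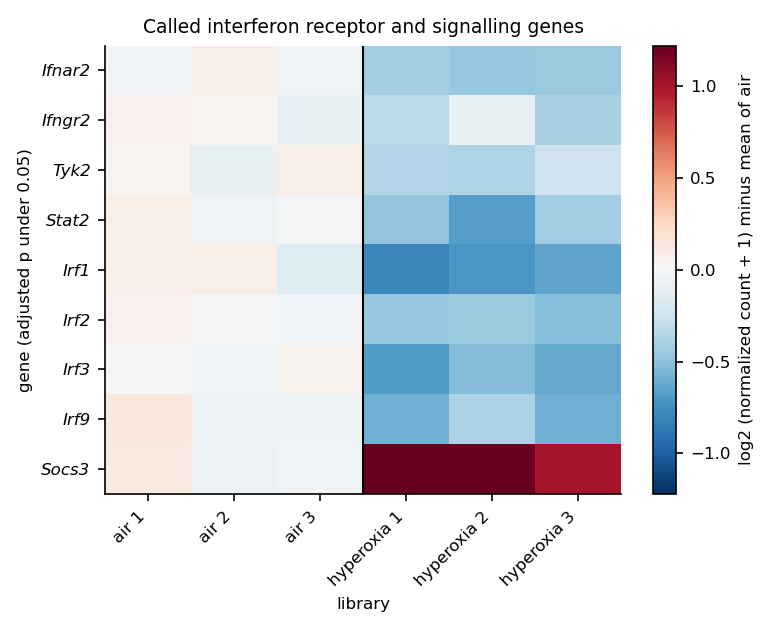
Log2 normalized count plus 1 of the 9 called interferon receptor and signalling genes (rows) in each library (columns), minus the mean of the 3 air libraries, in colour (red higher, blue lower). The 8 lower genes are blue in each hyperoxia library, and Socs3 is red in all of them.

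Other interferon response genes moved in both directions. Of 47 listed, 41 were tested, 8 were lower and 4 were higher, so 29.3% were called, close to the 30.5% of all genes tested. The list's median log2 fold change was −0.16. Iigp1, a GTPase of the immunity-related family, was at 165, 152 and 141 normalized counts in air and at 74.3, 70.2 and 94.6 in hyperoxia (log2 fold change −0.94, limma adjusted p = 0.0028). Ifi27 was at 375, 382 and 363 in air and at 224, 268 and 236 in hyperoxia (−0.62, limma adjusted p = 0.0028). Ly6e, a membrane protein gene and the highest of the called genes of this list, was at 9409, 9423 and 8512 in air and at 5467, 7572 and 5566 in hyperoxia (−0.57, limma adjusted p = 0.0073). These 3 genes were called under all 16 alternatives.

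The genes of this list named next were chosen after their values were seen, apart from Gbp7, Ifitm1 and Ifitm2. Lower were also Ifit1 (log2 fold change −0.90), Oasl2 (−0.88), Sp100 (−0.76), Xaf1 (−0.74) and Samhd1 (−0.25). The calls of Oasl2 and Samhd1 were kept in 11 of 16 alternatives each, and without air library 1 Oasl2 was at −0.57 and was not called. Higher were Gbp7 (0.67, limma adjusted p = 0.0072), a guanylate-binding protein gene, Trim25 (0.52), a ubiquitin ligase gene of RNA sensing, Eif2ak2 (0.50), the gene of the RNA-activated kinase PKR, and Ifit2 (0.44). Thus Ifit1 and Ifit2, from the same gene family as Ifit3, were called in opposite directions. Ifit1, at 15.4 to 46.1 normalized counts, was called in 10 of 15 alternatives and Ifit2 in 12 of 16. Ifitm1 and Ifitm2, the relatives of Ifitm3, were at −0.08 and −0.11 (limma adjusted p = 0.83 and 0.72).

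Of 12 genes of nucleic acid sensing and the signalling below it, 1 was called (8.33%), where 30.5% of all genes tested were. Mb21d1, the gene of the DNA sensor cGAS, was at 121, 106 and 122 normalized counts in air and at 76.0, 54.3 and 84.9 in hyperoxia (log2 fold change −0.71, limma adjusted p = 0.019). Tbk1, the kinase gene upstream of IRF3, was at −0.24 (limma adjusted p = 0.092), and the receptors Tlr7 and Tlr3 were at 0.38 and 0.21 (limma adjusted p = 0.13 and 0.14). None of the 10 interferon genes listed had a row under its symbol in the deposited table, so they could not be analysed here.

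Along the class I loading route, 3 of 13 genes were called (23.1%), 1 lower and 2 higher, where 30.5% of all genes tested were called. Calr, the gene of the chaperone calreticulin, was at 25168, 23100.4 and 22930.1 normalized counts in air and at 15513, 17212 and 16953 in hyperoxia. Its log2 fold change was −0.52 (SE 0.08, adjusted p = 0.00175 by limma), called under all 16 alternatives. Canx, the gene of the chaperone calnexin, rose by 0.29 on that scale (limma adjusted p = 0.014) and was called in 13 of 16. Erap1, the gene of the peptidase that trims peptides for class I, rose by 0.46 (limma adjusted p = 0.042), a call that 8 of 16 alternatives kept. Tap2, the partner of Tap1, was at −0.24 (limma adjusted p = 0.22) and Tapbpl at −0.34 (0.14). Canx and Calr serve many glycoproteins besides class I.

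Of the 12 tested genes for other class I and class I-like molecules, 3 were called (25.0%), each higher in hyperoxia. Of all genes tested, 30.5% were called in either direction and 14.9% were called higher. H2-Q2, a nonclassical class I gene, was at 19.8, 11.2 and 13.3 normalized counts in air and at 160.0, 91.7 and 73.4 in hyperoxia. The lowest hyperoxia library was well above the highest air library. Its log2 fold change of 2.75 (SE 0.32, adjusted p = 7.05e-04 by limma) was called under all 16 alternatives, from 2.43 to 2.99. H2-Q1 was at 4.71, 4.07 and 0 in air and at 46.0, 35.1 and 7.72 in hyperoxia (limma adjusted p = 0.020), and 12 of 15 alternatives called it. Of the 50-base words of H2-Q1, 16.1% occur in other genes, with H2-Q2 first, and of those of H2-Q2 8.74% do, so reads could have been shared between them. H2-T24 was at 201, 169 and 186 in air and 318, 203 and 328 in hyperoxia (log2 fold change 0.58, limma adjusted p = 0.037), and 9 of 16 alternatives called it. Hfe (0.34), H2-T23 (−0.11) and H2-Q4 (0.09) were not called.

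Among 7 MHC class II genes, 2 were called (28.6%), where 30.5% of all genes tested were. Cd74, the gene of the invariant chain, was at 65.9, 59.0 and 58.5 normalized counts in air and at 107, 91.7 and 97.5 in hyperoxia (log2 fold change 0.68, limma adjusted p = 0.0096). H2-DMa, the gene of a chain that loads peptide on class II, was at 661, 660.4 and 639 in air and at 405, 504 and 410.2 in hyperoxia (−0.58, limma adjusted p = 0.0036). The groups were separate for both, in opposite directions. The other 5 were not called, with the class II transactivator gene Ciita at 0.65 (limma adjusted p = 0.076) and H2-Eb1 at −0.57 (0.16).

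**Figure D4:**
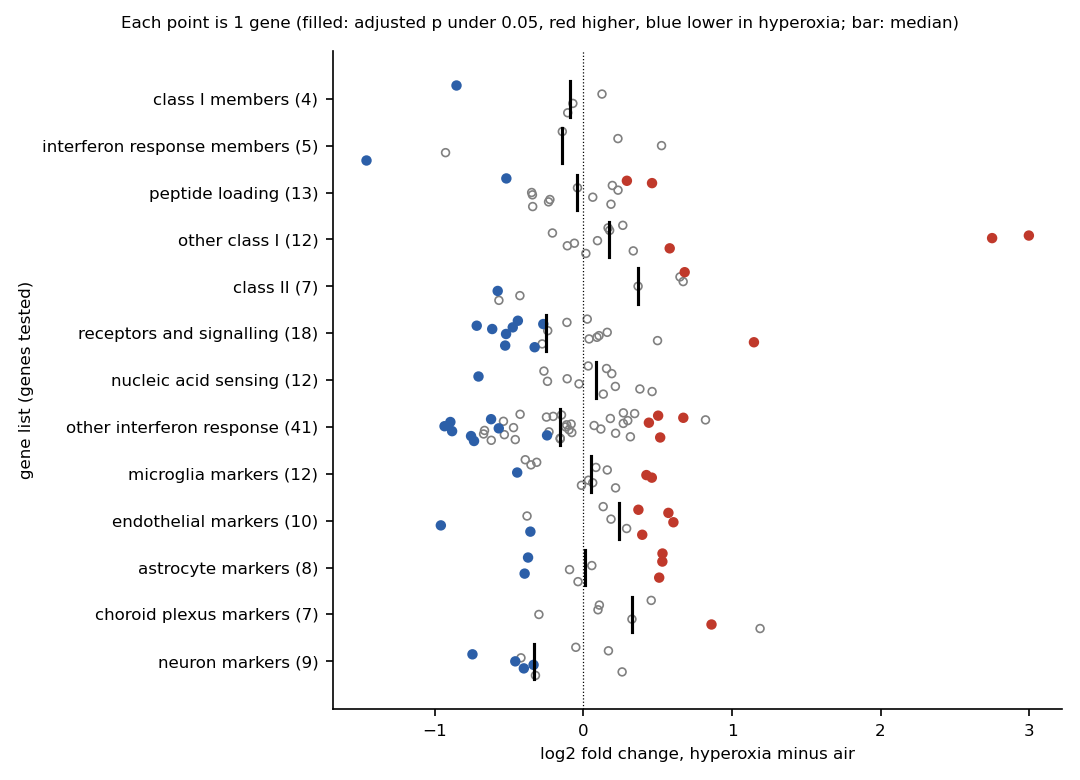
Log2 fold change, hyperoxia minus air (horizontal axis), of each tested gene in the lists named on the vertical axis, with the number tested in brackets, called genes filled (red higher, blue lower) and the list median as a black bar. The receptor and signalling list has 8 blue points of 18, and H2-Q2 and H2-Q1 are the farthest right.

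Markers of the cells known for class I and interferon genes were read beside these results. The 12 microglia markers summed to 15202 to 15806 normalized counts in air and 15023 to 17518 in hyperoxia. Of them, 2 were called higher and 1 lower (25.0%), where 30.5% of all genes tested were called. Cx3cr1 was at 0.42 (limma adjusted p = 0.0029), P2ry12 at 0.03 and Tmem119 at 0.06. The list was mixed, and among genes chosen after their values were seen Ctss was called lower (−0.45, limma adjusted p = 0.0045), while Aif1 (−0.39), C1qb (−0.35) and C1qa (−0.32) were not called. The 10 endothelial markers summed to 10009 to 10372 in air and 10836 to 12225 in hyperoxia, with 4 called higher and 2 lower (60.0%). Cldn5 was at 0.57 (limma adjusted p = 0.0030), Pecam1 at 0.29 and Flt1 at 0.19. In the other direction, and also chosen after their values were seen, Ly6c1 was at −0.96 (limma adjusted p = 9.8e-04), the largest change of the list, Slco1a4 was called lower at −0.36, and Emcn was at −0.38 and not called. The microglia sums of the groups overlapped and the endothelial sums were higher in hyperoxia, but in both lists some markers moved in the direction of B2m and Isg15. Both sums were highest in hyperoxia library 2, the library that was also highest of its group for 8 of the 9 genes. The part of these markers in the values of the 9 genes was not tested.

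The 8 astrocyte markers summed to 204640 to 214786 in air and 240375 to 258429 in hyperoxia. A sum weighs the highest genes most, and the median log2 fold change of this list was only 0.0095. Aqp4 was at 0.53 (limma adjusted p = 0.0019), Gja1 at −0.09 and Gfap at 0.06. Of these 8 genes, 3 were called higher and 2 lower (62.5%), where 30.5% of all genes tested were called. The 9 neuron markers summed to 194653 to 205003 in air and 164620 to 175974 in hyperoxia. Of them, 4 were called (44.4%), all lower, where 15.6% of all genes tested were called lower. Among the 4 were Rbfox3 at −0.46 (limma adjusted p = 0.0027) and Snap25 at −0.40 (0.011), while Syt1 was at 0.26. The neuron sum thus moved in the direction of B2m, and its part in the fall of B2m was not tested. The 8 choroid plexus markers summed to 4458 to 6185 in air and 4009 to 15712 in hyperoxia, with the highest sum in hyperoxia library 3. Ttr was at 1.19 (limma adjusted p = 0.46), Folr1 at 0.10 and Kl at −0.30, and 1 of the 7 tested was called (14.3%), higher. Leukocyte markers were near the floor. Only 2 of 12 passed the filter, their sum was 77.2 to 105 in air and 109.6 to 249.99 in hyperoxia, and the T cell genes Cd3e and Cd3g did not exceed 4.11 normalized counts. Ptprc, which microglia also express, was at 0.64 (limma adjusted p = 0.038) and was called in 10 of 16 alternatives.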

How the data were processed

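Left hippocampal polyA RNA of 6 mice (3 in room air, 3 in 85% oxygen) was sequenced in 1 library per mouse. The submitters' processing notes name FastQC, STAR 2.5.3a, HTSeq and DESeq2, with genome build, annotation and strand setting not given in the sources used here. Per gene, the signal deposited by the authors is a read count per gene divided by 1 size factor per library. Dividing by the value of 1 read gave a whole number, to a tolerance of 0.01, for 100% of values, so reads were recovered. A second deposited table holds the authors' own comparison (mean, fold change, error, p) and was not used. Groups were taken from the column names.

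Genes with a mean of at least 10 were tested in R 4.3.3 on the log2 scale (pseudocount 1) by limma 3.58.1, letting the prior variance follow the mean. The settings varied were the pseudocount (0.5 or 5), the filter (none or a mean of 50), the scaling (TMM or quantile), the prior (no trend), edgeR 4.0.16 and DESeq2 1.42.0 on recovered reads, removal of a smooth length and GC trend (mgcv 1.9.3, 17735 genes), and each library left out. The pipeline was tested on simulated data. Single genes were also compared by exact permutation (scipy 1.17.1). Positions and exon lengths came from GENCODE M21, which held 99.7% of the gene identifiers, and promoters from RefSeq (GRCm38.p6).

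The 9 genes, the gene lists and the settings were chosen with earlier results of these data known. Besides the 9 genes, the genes named were the 4 with the smallest p in each pathway list, close relatives of the 9, the first 3 of each marker list and the 3 most similar in pattern. Genes named beyond this rule are marked as chosen after their values were seen. Values of 1 gene of the lists are not reported here.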

Additional observations from a re-analysis of the deposited data

How the results depend on the processing

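B2m (16 of 16) and Isg15 (15 of 15, since a mean of at least 50 removed it) were called lower under every alternative that tested them, with leave-one-out values of −0.97 to −0.76 and −1.58 to −1.37. Tap1 (−0.18 to −0.05) and Ifit3 (0.14 to 0.35) were called under none. After removal of the length and GC trend, H2-K1 turned to 0.070 and Bst2 to 0.044, neither called, while H2-D1 (0.26) and Ifitm3 (0.69) were called. DESeq2 called Ifitm3 (0.55) and Irf7 (−0.93). With each library left out, Ifitm3 ranged from 0.33 to 0.65, Irf7 from −1.22 to −0.64 and Bst2 from −0.29 to 0.15. The number of the 9 genes called higher moved from 0 to 1 with DESeq2 and to 2 after the length and GC correction, and ranged from 0 to 1 with a library left out. The number called lower was 1 with a mean of at least 50, because Isg15 was not tested there. Of 103 genes tested over the pathway lists, 11 were called higher and 19 lower, where 14.9% and 15.6% of all genes tested were. Leaving out a library gave 7 to 16 higher and 13 to 24 lower. The share of all genes called also moved with the library left out, and was 43.6% without hyperoxia library 2. Of 48 genes tested over the marker lists, 11 were called higher and 9 lower, against the same shares of all genes. With a library left out these were 7 to 12 higher and 4 to 13 lower. The causes of these changes were not tested.

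For 59 other genes (those named by the fixed rule from the pathway and marker lists, with the rest of the called pathway genes), 841 of 938 values kept their direction and side of the threshold, 64 lost a call, 14 gained a call and 19 turned sign. After removal of the length and GC trend Ifitm1 was at 0.037, Ifitm2 at 0.10 and P2ry12 at −0.057. With a library left out, the genes that turned sign ranged from −1.07 to 1.07 (Folr1), −0.053 to 0.12 (Gfap), −0.00434 to 0.18 (H2-Q4), −0.23 to 0.015 (H2-T23), −0.057 to 0.53 (Ifit3b), −0.31 to 0.19 (Ifitm1), −0.32 to 0.054 (Ifitm2), −0.026 to 0.075 (P2ry12), −0.045 to 0.12 (Tmem119) and −0.44 to 2.23 (Ttr, the lowest without hyperoxia library 3). No paired analysis was possible because the animals of the 2 groups carry different numbers and the column numbers do not name animals. Depth limits Isg15, Irf7, Ifit3 and Bst2 most, with 17 to 143 reads per library.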
